A study of Bos taurus with 2 samples.

Results

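The miRNA family of mir-148a, mir-148b and mir-152 of cattle was followed here in the mammary gland through the 3 entries that carry these names among 283 known bovine miRNAs. The members were chosen by name, and they are 3 of 884 unique miRNAs in all, the others being the remaining known miRNAs, 96 that are conserved in other mammals and 505 genome-predicted candidates (prefix CN). Small RNA was sequenced from the mammary gland of 2 Holstein cows. The lactation library was made from a multiparous cow aged 6 years that had been lactating for 2 months, and the non-lactation library from a multiparous cow aged 4 years that was not lactating and not pregnant. With 1 library per condition, stage cannot be told apart from age or from the individual cow, and the differences below have no replicate check. The study also ran an array on RNA pooled from these and further cows of each stage, whose signals were not used here.

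A miRNA is cut as a duplex from a hairpin precursor, and the arm that stays in the silencing complex finds its mRNA targets mainly through its seed, which is bases 2 to 8 from the 5′ end. The 3 members share a seed and so have largely the same predicted targets. In human cells the family is known to repress DNA methyltransferase 1, which copies DNA methylation to the new strand. mir-148a is known as an abundant miRNA of milk, and members of the family have been studied in dairy cows as regulators of lipid and milk protein synthesis in mammary epithelial cells.

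The sequences of the members are shown first because they differ at few positions and outside the seed. Each is the most abundant sequence that the authors list for the 3p arm, written 5′ to 3′ in lower case with the seed in capitals.
mir-148a-3p: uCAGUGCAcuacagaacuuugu
mir-148b-3p: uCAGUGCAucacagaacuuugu
mir-152-3p: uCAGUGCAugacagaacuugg

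With positions counted from 1 at the 5′ end, mir-148a-3p differed from mir-148b-3p by C9U and U10C and was identical at 20 of 22 positions. From mir-152-3p it differed by C9U, U10G and U20G, over 21 shared positions. mir-148b-3p and mir-152-3p differed by C10G and U20G. The most abundant sequence of mir-152-3p had 21 nt, against 22 nt for the other two. The mature mir-152 sequence that the study listed for its array had 22 nt and ended in 1 more G.
mir-152, array reporter: uCAGUGCAugacagaacuuggg

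The stretch CAGUGCA stood at bases 2 to 8 in 3 of the 884 miRNAs (0.339%), which are the members. It stood at bases 1 to 7, shifted by 1 base, in another 3 entries, namely mir-130a-3p, mir-130b-3p and CN-82-3p, and at bases 3 to 9 in 0 of 884. mir-130a-3p had 245 reads in lactation and 573 in non-lactation and was lower in lactation (ratio of RPM 0.571, 95% interval 0.489 to 0.664). mir-130b-3p had 67 and 57 reads and CN-82-3p had 6 and 4 reads in lactation and non-lactation, and neither passed the test.

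The hairpins lie on 3 chromosomes. On the build BTA 4.0 the authors list mir-148a at chr4:72669200-72669267 on the plus strand, mir-148b at chr5:28577700-28577789 on the minus strand and mir-152 at chr19:39650347-39650432 on the plus strand. Apart from entries of the same hairpin, the nearest listed miRNA lay 708.7 kb from mir-148a, 314.3 kb from mir-148b and 533.4 kb from mir-152. In the RefSeq gene table, which is of another assembly and is used for names only, MIR148B lies within COPZ1 and MIR152 within COPZ2, which encode paralogous zeta subunits of the COPI vesicle coat. MIR148A overlaps no protein-coding gene there. The table also has MIR148D overlapping MIR148A and MIR148C overlapping MIR152. It does not give exons or strands, so whether the hairpins are intronic was not determined.

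The hairpins of mir-148a and mir-148b are shown because the authors list a candidate miRNA for their other arm at identical coordinates. Capitals mark both arms, the 5p arm first. The arms are separated by 18 bases in mir-148a and by 15 bases in mir-148b.
mir-148a hairpin: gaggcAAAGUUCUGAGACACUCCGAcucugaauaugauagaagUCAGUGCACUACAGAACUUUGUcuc
mir-148b hairpin: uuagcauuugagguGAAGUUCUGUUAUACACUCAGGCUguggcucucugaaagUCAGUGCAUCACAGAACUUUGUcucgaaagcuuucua

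The deposited tables give 2 counts for a miRNA, the reads of the sequence found most often and the reads summed over its isomiRs, which are variants of a miRNA in length or sequence. Summed over all miRNAs the most abundant sequences had 5745961 reads in lactation and 7879028 in non-lactation. CN-263-3p is listed with the same counts as mir-200b-3p (28517 reads in lactation and 6598 in non-lactation). Both are in these sums and in the shares over all miRNAs below. Levels are given as RPM, the reads per 1000000 clean reads, and a ratio is the RPM in lactation divided by the RPM in non-lactation. Its exact 95% interval is that of Clopper and Pearson, given the sum of both counts. Intervals cover counting error only, because 1 library per condition leaves no spread between cows to measure. Reads copied by PCR do not stand for separate molecules either, which the intervals do not take into account. Fisher's exact test (two-sided, Bonferroni over 883 miRNAs for the most abundant sequence and over 877 for all isomiRs) compares these libraries, not the conditions. By that test 17.4% of all miRNAs were called higher and 10.9% lower in lactation on the most abundant sequence. On all isomiR reads 24.3% were called higher and 13.5% lower. These shares cover miRNAs of any depth, and a call depends on the number of reads. let-7f-5p, with 1003169 reads in lactation and 1422718 in non-lactation, was called lower at a ratio of 0.941. mir-133b-3p, with 10 reads in lactation and 7 in non-lactation, was not called at a ratio of 1.91. A call at many reads can thus go with a small difference. The libraries come from whole tissue, so fewer cells of a type and less RNA per cell cannot be told apart.

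mir-148a-3p was the member with the most reads of the most abundant sequence in both libraries, and it was much higher in lactation. This sequence had 60541 reads in lactation and 10630 in non-lactation. These are 5060 RPM in lactation and 665.7 RPM in non-lactation, a ratio of 7.60 (95% interval 7.45 to 7.76), and it was called higher by Fisher's exact test with an adjusted p too small to be represented in double precision. Among the 283 known miRNAs it ranked 13th by this level in lactation and 42nd in non-lactation. Counted over all isomiRs the difference was larger, with 156597 reads in lactation and 18651 in non-lactation, or 13088 and 1168 RPM, and a ratio of 11.2 (11.04 to 11.4). A ratio of at least 4 was reached by 10.6% of the 273 miRNAs with at least 100 summed reads of the most abundant sequence, and by 10.8% of the 343 with at least 100 summed isomiR reads. mir-148a-3p was the only member past it, on both measures.

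mir-148b-3p, the scarcest member in both libraries, was moderately higher in lactation. Its most abundant sequence had 1253 reads in lactation and 1078 in non-lactation, that is 104.7 and 67.5 RPM. The ratio was 1.55 (1.43 to 1.68, Fisher's exact test, adjusted p = 3.62e-23). Over all isomiRs it had 3538 reads in lactation and 1976 in non-lactation, or 295.7 and 123.7 RPM, and a ratio of 2.39 (2.26 to 2.53, adjusted p = 2.06e-219). The ratio of the most abundant sequence was 1.16 on unscaled reads and was then not called.

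mir-152-3p differed least between the libraries, and its direction depended on which reads were counted. The most abundant sequence had 6961 reads in lactation and 7880 in non-lactation, that is 581.8 and 493.5 RPM. Its ratio was 1.18 (1.14 to 1.22, Fisher's exact test, adjusted p = 1.55e-20), so it was called higher. Over all isomiRs it had 14857 reads in lactation and 23705 in non-lactation, or 1242 and 1485 RPM, and it was called lower with a ratio of 0.836 (0.819 to 0.854, Fisher's exact test, adjusted p = 3.12e-63). Of the 99 known miRNAs with at least 1000 isomiR reads in each library, mir-152-3p was the only 1 called in opposite directions by the measures. Below that minimum, mir-376d-3p was called lower on its most abundant sequence (15 reads in lactation and 59 in non-lactation). On all isomiR reads mir-376d-3p was called higher (173 and 102 reads). With TMM, DESeq2 or no scaling the most abundant sequence of mir-152-3p also had a ratio below 1.

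**Figure D1:**
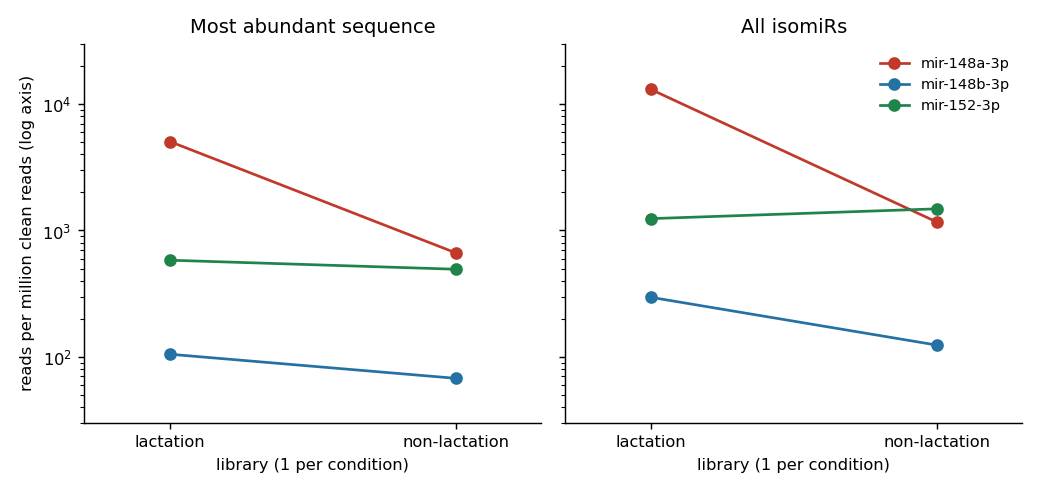
RPM of each member in the lactation and the non-lactation library on a log axis, for the most abundant sequence (left) and all isomiRs (right). Points are single libraries and lines join the same miRNA: mir-148a-3p stood at 5060 RPM in lactation against 665.7 RPM in non-lactation on the left, and on the right mir-152-3p lay below it in lactation and above it in non-lactation.

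These ratios can be set beside those of all miRNAs. The median log2 ratio was 0.24 over the 273 miRNAs with at least 100 summed reads of the most abundant sequence, with quartiles of -0.81 and 1.15. mir-152-3p, at a log2 ratio of 0.24, was itself the middle miRNA of that distribution. mir-148b-3p lay 0.40 above the median and mir-148a-3p 2.69 above it. For all isomiR reads the median over 343 miRNAs was 0.15, and mir-148a-3p lay 3.34 above it, mir-148b-3p lay 1.11 above it and mir-152-3p differed from it by -0.41. Other scalings shifted the median of the most abundant sequences, by -0.26 for TMM, -0.28 for DESeq2 size factors, -0.42 for unscaled reads and 0.11 for totals of the listed isomiR reads. The distances of the members from the median do not depend on the scaling.

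The make-up of the family changed accordingly, a measure that needs no scaling between libraries. mir-148a-3p made up 88.1% of the family's reads of most abundant sequences in lactation (exact 95% interval 87.8% to 88.3%) and 54.3% in non-lactation (53.6% to 55.0%). mir-152-3p made up 10.1% in lactation (9.90% to 10.4%) and 40.2% in non-lactation (39.5% to 40.9%). mir-148b-3p made up 1.82% (1.72% to 1.93%) in lactation and 5.50% (5.19% to 5.83%) in non-lactation. Over all isomiRs mir-148a-3p held 89.5% of the family's reads in lactation and 42.1% in non-lactation, and mir-152-3p held 8.49% in lactation and 53.5% in non-lactation. By isomiR reads the most abundant member was therefore mir-148a-3p in the lactation library and mir-152-3p in the non-lactation library.

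**Figure D2:**
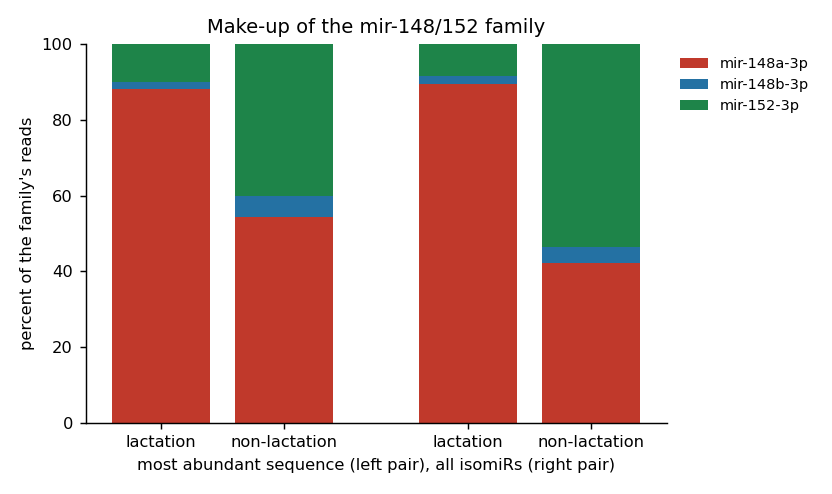
Percent of the family's reads held by each member in the lactation and the non-lactation library, for the most abundant sequence (left pair of bars) and all isomiRs (right pair). mir-148a-3p held 88.1% in lactation and 54.3% in non-lactation on the left, and 89.5% and 42.1% on the right.

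All 3 pairs of members differed in their balance between the libraries. There were 48.3 reads of mir-148a-3p for each read of mir-148b-3p in lactation and 9.86 in non-lactation, an odds ratio of 4.90 (exact 95% interval 4.50 to 5.33) for the most abundant sequences and of 4.69 (4.43 to 4.97) for all isomiRs. There were 8.70 reads of mir-148a-3p for each read of mir-152-3p in lactation and 1.35 in non-lactation. This odds ratio was 6.45 (6.20 to 6.70) for the most abundant sequences and 13.4 (13.1 to 13.7) for all isomiRs. mir-152-3p had 5.56 reads for each read of mir-148b-3p in lactation and 7.31 in non-lactation, and the odds ratio of mir-148b-3p over mir-152-3p was 1.32 (1.204 to 1.44) and over all isomiRs 2.86 (2.69 to 3.03). No interval held 1.

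As a whole the family had 5746 RPM of most abundant sequences in lactation and 1227 RPM in non-lactation, a ratio of 4.68 (4.61 to 4.76). Without mir-148a-3p these were 686.5 RPM in lactation and 561.0 RPM in non-lactation, with a ratio of 1.22 (1.19 to 1.26). For all isomiRs without mir-148a-3p the ratio was 0.956 (0.938 to 0.974). The family held 1.22% of the reads of known most abundant sequences in lactation and 0.256% in non-lactation.

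The most abundant sequence of a miRNA holds only a part of its isomiR reads, and that part differed between the libraries in all 3 members. For mir-148a-3p it was 38.7% of isomiR reads in lactation (exact 95% interval 38.4% to 38.9%) and 57.0% in non-lactation (56.3% to 57.7%). For mir-148b-3p it was 35.4% in lactation (33.8% to 37.0%) and 54.6% in non-lactation (52.3% to 56.8%). mir-152-3p went the other way, with 46.9% in lactation (46.0% to 47.7%) and 33.2% in non-lactation (32.6% to 33.8%). Both mir-148 members thus had a smaller part of their reads in the listed sequence in lactation, and mir-152-3p a larger part.

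Such shifts were large beside those of other miRNAs. Over the 99 known miRNAs with at least 1000 isomiR reads in each library, the share in lactation minus the share in non-lactation had a median of -0.50 percentage points and quartiles of -4.19 and 3.09, and it was negative in 53 and positive in 46. The lowest value of the 99 was that of mir-148b-3p (-19.1 percentage points) and the next that of mir-148a-3p (-18.3). mir-152-3p, at 13.6 percentage points, was the 4th highest. This order is a description of 2 libraries, and no test was made on it. The files give the sum and the number of isomiRs but not their sequences, so which variants took up the other reads was not determined here.

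**Figure D3:**
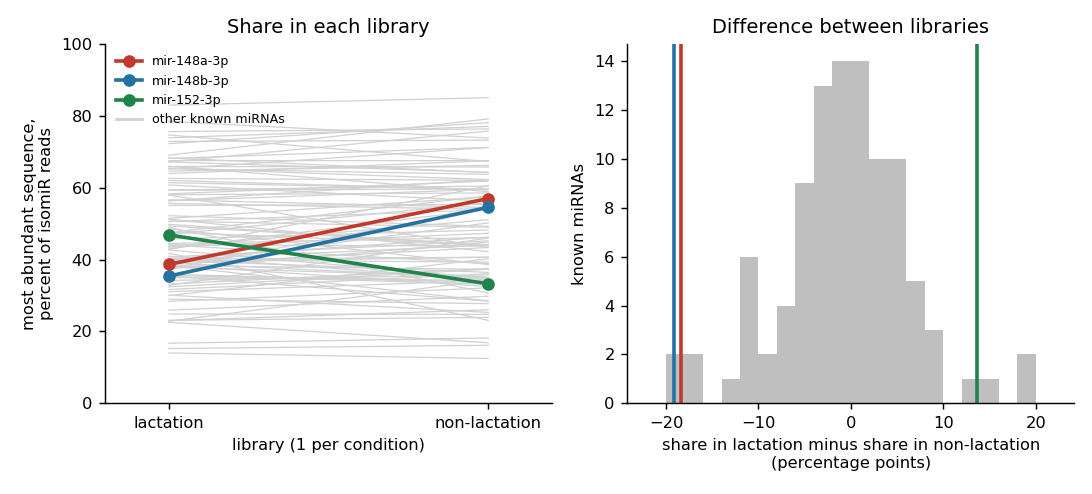
Left, reads of the most abundant sequence as a percent of isomiR reads in the lactation and the non-lactation library for 99 known miRNAs (grey) and the members (colours). Right, histogram of the share in lactation minus the share in non-lactation in percentage points, with a line for each member: mir-148b-3p (-19.1) and mir-148a-3p (-18.3) lay at the low end and mir-152-3p (13.6) near the high end.

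The isomiR reads other than the most abundant sequence are the rest of the same counts, so their ratios restate the shift in share above. In each member they differed more between the libraries than the most abundant sequence did. mir-148a-3p had 96056 such reads in lactation and 8021 in non-lactation, a ratio of RPM of 15.98 (15.6 to 16.4). For mir-148b-3p they were 2285 reads in lactation and 898 in non-lactation, with a ratio of 3.40 (3.14 to 3.67). For mir-152-3p they were 7896 reads in lactation and 15825 in non-lactation, with a ratio of 0.666 (0.648 to 0.684). How reads with a mismatch were shared out among members that differ by 2 or 3 bases is not given in the sources used here.

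The number of distinct isomiRs, or kinds, was set beside known miRNAs whose isomiR reads in the same library were at most 25% above or 20% below, since it grows with the reads. mir-148a-3p had 242 kinds in lactation and 66 in non-lactation, and mir-148b-3p had 38 in lactation and 19 in non-lactation. The 13 known miRNAs of like reads to mir-148b-3p had 25 to 59 kinds in lactation (median 40), and the 9 in non-lactation had 14 to 35 (median 22). mir-148a-3p also lay inside the range of like miRNAs, which was 188 and 356 kinds for 2 miRNAs in lactation and 62 to 83 for 3 miRNAs in non-lactation.

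mir-152-3p had few kinds for its reads. It had 57 kinds in lactation, where 6 known miRNAs of like reads had 53 to 107 (median 85), and 1 of the 6 had fewer. In non-lactation it had 42 kinds, and all 6 miRNAs of like reads had more, with 78 to 98 (median 88). mir-152-3p thus had more isomiR reads but fewer kinds in non-lactation, at 564.4 reads per kind there and 260.6 in lactation.

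**Figure D4:**
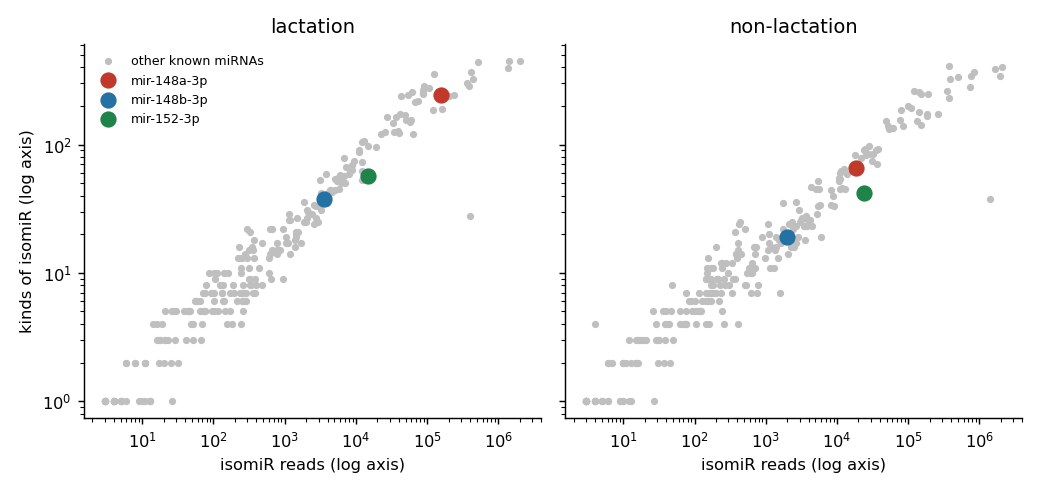
Kinds of isomiR against isomiR reads for the known miRNAs (grey) and the members (colours) in the lactation library (left) and the non-lactation library (right), both on log axes. mir-152-3p lies at the lower edge of the cloud in non-lactation, with 42 kinds, while mir-148a-3p (66 kinds) and mir-148b-3p (19 kinds) lie within it.

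The known table lists the 3p arm alone for each member, and the 5p arms of 2 of the 3 hairpins appear among the CN candidates. The 5p arm of mir-148a is listed as CN-388-5p and that of mir-148b as CN-178-5p. No entry at the mir-152 coordinates was listed for a 5p arm. Bases 2 to 8, in capitals, are identical in both, and the identity runs to base 9. No other of the 884 entries had this stretch at bases 2 to 8.
CN-388-5p: aAAGUUCUgagacacuccga
CN-178-5p: gAAGUUCUguuauacacucaggcu

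CN-388-5p was higher in lactation, as its partner arm was, at a far lower level. It had 37 reads of its most abundant sequence in lactation and 6 in non-lactation, or 3.09 and 0.376 RPM, and a ratio of 8.23 (3.44 to 23.9, Fisher's exact test, adjusted p = 6.11e-06). Over all isomiRs it had 74 reads in lactation and 9 in non-lactation, with a ratio of 10.97 (5.48 to 24.9). There were 1636 reads of mir-148a-3p for each read of CN-388-5p in lactation and 1772 in non-lactation, an odds ratio of 0.924 (exact 95% interval 0.319 to 2.21). A change in the balance of the arms was not detectable at this depth.

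CN-178-5p had 19 reads in lactation and 26 in non-lactation, that is 1.59 and 1.63 RPM, and was not called (ratio 0.975, 0.510 to 1.83). There were 65.9 reads of mir-148b-3p for each read of CN-178-5p in lactation and 41.5 in non-lactation, an odds ratio of 1.59 (0.841 to 3.06). Over all isomiRs the 5p arm had 27 reads in lactation and 36 in non-lactation, and this odds ratio was 2.39 (1.40 to 4.10), so that the interval lay above 1 on isomiR reads and held 1 on the most abundant sequence.

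The known miRNAs with at least 1000 summed reads were searched for ratios like those of the members, on the most abundant sequence, over these 2 libraries. Of 105 such miRNAs, 4 had a higher ratio than mir-148a-3p, and 1 other lay within 0.25 of its log2 ratio. The nearest were mir-200c-3p (8172 RPM in lactation and 919.8 in non-lactation, ratio 8.88, 8.73 to 9.04), a miRNA of epithelial cells, and mir-1-3p (4393 RPM in lactation and 691.4 in non-lactation, ratio 6.35, 6.22 to 6.49), a miRNA of striated muscle. The next was mir-200b-3p, also of epithelium, with a ratio of 5.77 (5.62 to 5.93). The intervals of these neighbours did not overlap that of mir-148a-3p.

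mir-148b-3p and mir-152-3p lay where ratios were dense. mir-148b-3p had 14 miRNAs within 0.25 of its log2 ratio, the nearest being mir-103-3p (1.52), mir-124a-3p (1.60) and mir-361-5p (1.48). mir-152-3p had 13, the nearest being mir-145-5p (1.17), mir-26b-5p (1.22) and mir-30c-5p (1.299). The intervals of mir-148b-3p (1.43 to 1.68) and mir-152-3p (1.14 to 1.22) each held the ratios of their own 3 neighbours, except that of mir-30c-5p.

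Marker miRNAs of cell types also differed between the libraries, in some lists more than in others. Of 9 miRNAs of luminal epithelium 6 were called higher and 0 lower, beside 17.4% and 10.9% of all miRNAs at any depth. The other 3, mir-182-5p, mir-183-5p and mir-96-5p, were not called, but on all isomiR reads mir-96-5p was called higher (ratio 1.51). The 9 had a median log2 ratio of 1.28 beside 0.24 over all miRNAs with at least 100 reads. Their summed level was 14998 RPM in lactation and 2118 in non-lactation, a ratio of 7.08 beside 7.60 for mir-148a-3p. Of these sums mir-200c-3p alone gave 8172 RPM in lactation and 919.8 RPM in non-lactation. The 9 ran from mir-183-5p (log2 ratio -0.39, not called, 8 reads in lactation and 14 in non-lactation) to mir-141-3p (4.10). Of 5 miRNAs of striated muscle 3 were called higher and 0 lower (median 1.79), and their summed level was 4494 RPM in lactation and 701.6 in non-lactation, nearly all of it mir-1-3p. The 5 ran from mir-133b-3p (log2 ratio 0.93, not called) to mir-133a-3p (4.33). Both endothelial miRNAs, mir-126-3p and mir-126-5p, were called higher.

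Stromal markers were divided. Of 6 listed miRNAs of stroma and smooth muscle 2 were called higher and 3 lower, beside 17.4% and 10.9% of all miRNAs at any depth. The 6 had a median of -0.59 and a summed level of 8640 RPM in lactation and 14558 in non-lactation. They ran from mir-199a-3p (-2.25) to mir-143-3p (1.23), and mir-145-5p, called higher here (ratio 1.17), was not called with TMM (0.979) and was called lower with DESeq2 size factors (0.966) and on unscaled reads (0.880). The list then had 1 higher and 3 lower with TMM, and 1 higher and 4 lower with the other two. Of 7 blood miRNAs 2 were called higher (mir-451-5p and mir-486-5p) and 2 lower (mir-142-3p and mir-142-5p). With TMM, DESeq2, no scaling or all isomiR reads mir-223-3p was also called lower, which makes 3. The summed level of the 7 was 155.5 RPM in lactation and 148.5 in non-lactation, with mir-144-3p listed at 3 reads in lactation and at 0 in non-lactation. Markers of epithelium were thus present in both libraries, as the label mammary gland asks, and markers of muscle were too. The part of the cell types in the ratios of the members was not tested.

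**Figure D5:**
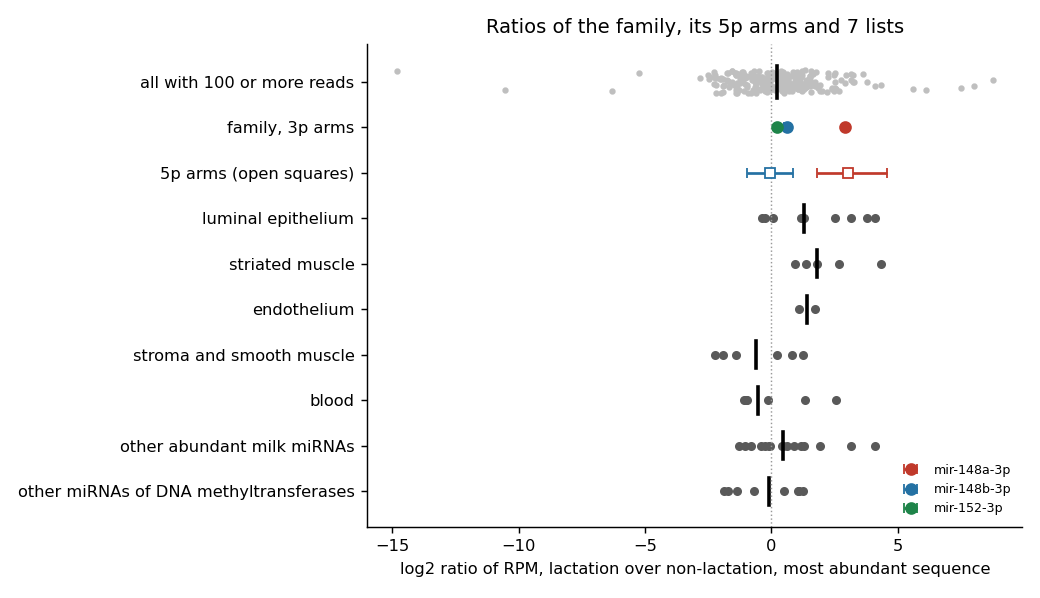
Log2 of the RPM in lactation over the RPM in non-lactation, on the most abundant sequence, for 273 miRNAs with at least 100 summed reads (grey, with a listed 0 set to 3 reads), the members and their 5p arms (with exact 95% intervals) and 7 lists (points are miRNAs, black bars medians). mir-148a-3p (2.93) and its 5p arm (3.04) stand to the right, while mir-148b-3p (0.63) and mir-152-3p (0.24) lie near the median of all (0.24).

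Other miRNAs that have been reported to repress DNA methyltransferases in human or mouse cells had no common direction. Of 8 such miRNAs 4 were called higher and 4 lower in lactation, beside 17.4% and 10.9% of all miRNAs at any depth. The 8 had a median log2 ratio of -0.10. Their counts of calls were the same with the 6 other ways of scaling or counting that were tried. mir-143-3p (1.23), mir-126-3p (1.08), mir-185-5p (1.05) and mir-29c-3p (0.49) were higher. Of these, mir-143-3p is also on the stromal list and mir-126-3p on the endothelial list. mir-342-3p (-1.88), mir-101-3p (-1.74), mir-29a-3p (-1.34) and mir-29b-3p (-0.69) were lower. Their summed level was 21359 RPM in lactation and 44756 in non-lactation, of which mir-29a-3p gave 13613 and 34524 RPM. mir-148a-3p stood below mir-29a-3p in both libraries.

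Of 16 other miRNAs known to be abundant in milk 9 were called higher and 6 lower, beside 17.4% and 10.9% of all miRNAs at any depth. With the listed isomiR reads as totals 11 were called higher and 4 lower. The 16 had a median log2 ratio of 0.45. They ran from mir-26a-5p (-1.28) to mir-141-3p (4.10). Of the 3 let-7 members listed, let-7a-5p (0.44) and let-7b-5p (0.90) were called higher, and let-7f-5p (-0.09) was called lower but higher with the listed isomiR reads as totals (ratio 1.01). mir-30a-5p was higher (1.91). The log2 ratio of mir-148a-3p (2.93) was exceeded in this list by mir-141-3p and mir-200c-3p (3.15), which are also on the epithelial list. So are mir-182-5p and mir-200a-3p, and the calls of these miRNAs are counted in both lists.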

How the data were processed

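Small RNA of the mammary gland was sequenced from 1 cow in lactation and 1 cow out of lactation. The authors filtered the reads for quality, adaptors and matches to mRNA, rRNA, tRNA and other classes, and mapped the clean reads with ACGT101-miR to miRBase 17.0 and the bovine genome BTA 4.0. The sources differ on RNA extraction, with Trizol in the sample labels and a Qiagen miRNeasy kit in the study's methods. The deposited values are read counts, unscaled, given per miRNA for its most abundant sequence and for its isomiRs together. The kinds of isomiR, also deposited by the authors, are other whole numbers. For CN miRNAs the isomiR kinds and reads stand in the reverse of the labelled column order, as the values show, and the isomiR reads of 7 CN miRNAs that were blank or below the most abundant sequence were left out.

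RPM used the study's clean reads as totals, 11964909 in lactation and 15968116 in non-lactation. In ratios a listed 0 was set to 3 reads, the lowest value listed above 0, whereas Fisher's exact test, and so every count and share of calls, took it as 0. At this depth the interval of a ratio is narrow for the members and wide for the 5p arms, and it covers counting error only. Calls needed an adjusted p under 0.05. The 5p arms were matched by identical coordinates. Named miRNAs are the members, entries at their hairpins and entries with the seed at or 1 base before its place. The 3 known miRNAs nearest to each member in log2 ratio, among those with at least 1000 summed reads, are also named. Further named are members of 7 lists. Lists are given by counts, and all but those of endothelium and blood also by medians and extremes. Members of the milk and methyltransferase lists named beside the extremes were picked with their values known. The members and lists were chosen with earlier results of these data known.

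Computation was in Python 3.11.15 with scipy 1.17.1, numpy 2.4.6 and pandas 2.3.3, and figures were drawn with matplotlib 3.10.9. DESeq2 1.42.0 and edgeR 4.0.16 in R 4.3.3 gave only scaling factors. Tests and intervals were run on simulated counts that held counting error alone, so this does not bear on the spread between cows. Alternatives were other totals, TMM and DESeq2 factors, no scaling, all isomiR reads, Benjamini-Hochberg adjustment and a minimum of 10 summed reads. Raw reads were not analysed here, and the mir-152 hairpin sequence was not used here.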

Additional observations from a re-analysis of the deposited data

How the results depend on the processing

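Of 55 alternatives, 48 kept both the direction and the side of the threshold or, for counts, a value within 1.5 times. The ratio of mir-152-3p for the most abundant sequence (1.18) became 0.983 with TMM factors and 0.969 with DESeq2 size factors, neither called, and 0.883 on unscaled reads and 0.836 on all isomiR reads, both called lower. The ratio of mir-148b-3p (1.55) was 1.16 on unscaled reads and not called (Fisher's exact test, adjusted p = 0.275, against 2.06e-219 to 4.24e-06 under the other alternatives). CN-178-5p (0.975) had 1.00 on all isomiR reads, not called. mir-148a-3p was called higher under every alternative run. Its ratios were 5.70 (unscaled) to 8.19 (listed isomiR reads as totals) for the most abundant sequence and 8.396 to 12.1 for all isomiRs. The odds ratio of mir-148a-3p over mir-152-3p was 6.45 on the most abundant sequence and 13.4 on all isomiRs, and that of mir-148b-3p over mir-152-3p was 1.32 and 2.86. Calls over all miRNAs were 154 higher and 96 lower in lactation, with Benjamini-Hochberg adjustment 268 and 142, and on unscaled reads 108 and 125. The 5p arms, with at most 37 reads of the most abundant sequence in a library, have wide intervals. No paired analysis was possible because each condition has 1 library, and no library could be left out.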
